A study of Homo sapiens with 6 samples.

Results

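ZNF symbols name genes for zinc finger proteins, most of which belong to the C2H2 class. The ZNF genes expressed in MM1.S cells were taken as the listed symbols made of ZNF, a number and at most 1 further letter whose mean over the 2 DMSO libraries reached 10 CPM, the reads of a gene scaled to a common library total. This rule gave 221 members of 391 listed ZNF symbols, among 11048 listed genes, and 170 ZNF symbols lay under the floor. MM1.S is an established human multiple myeloma cell line. The sample titles name only this line and name no engineered allele. CCF642 and its analogue CCF642-34 inhibit PDIA1, an enzyme of the endoplasmic reticulum that forms and rearranges disulfide bonds. The cells were given DMSO, 3 µM CCF642 or 3 µM CCF642-34 for 6 h, and polyadenylated RNA was sequenced from 2 libraries per group. The labels do not say whether the libraries of a group came from separate cultures. The p-values therefore rest on the spread between these libraries, which may be technical. For each gene that spread was drawn towards a trend over all genes, with 42.9 prior against 3 residual degrees of freedom. Standard errors, intervals and p-values thus rest mostly on that trend and little on a gene's own libraries.

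C2H2 zinc fingers are short folds held by zinc through a pair of cysteines and a pair of histidines, and each finger typically contacts a few bases of DNA. The largest class in humans carries a KRAB domain at its amino end. KRAB binds TRIM28 (KAP1), which brings in the histone methyltransferase SETDB1, HP1 proteins (CBX1, CBX3 and CBX5) and the NuRD complex, and so silences chromatin, mostly at transposable elements. A smaller class carries a SCAN box, through which the proteins form dimers. Many KRAB genes lie in clusters of close relatives, and ZNF proteins without KRAB include transcription factors, ribosome factors and RNA-binding proteins.

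The plasma cell identity of the line could be read from its markers. All 9 plasma cell markers were listed, and their summed level was 9322 to 9384 CPM in DMSO, 6585 to 6628 CPM under CCF642 and 7382 to 7416 CPM under CCF642-34. The lower sum lay mostly in JCHAIN, at 4321 and 4316 CPM in DMSO against 1792 and 1875 CPM under CCF642, and in SDC1. TNFRSF17, MZB1 and CD38 were lower under CCF642 as well, with log2 changes of -1.06, -0.28 and -0.23, all called. The other markers were higher under CCF642, with log2 changes of 0.90 for IRF4, 0.37 for SLAMF7, 0.32 for PRDM1 and 0.16 for XBP1, all called. Of the markers of other cells, those for B cells and myeloid cells were not listed. T cell CD3E stayed at 2.09 to 3.19 CPM and epithelial EPCAM at 0.981 to 1.62 CPM. COL1A1, a fibroblast marker, was at 1.09 and 1.495 CPM in DMSO, 8.99 and 10.5 CPM under CCF642 and 2.74 and 3.53 CPM under CCF642-34, and its part in the results was not tested. Library totals were 20567313 to 28459677 reads. The CCF642-34 libraries were the deepest, with at least 27797578 reads, and the least covered member had 118 reads in a library. Replicates of a group differed by more than counting noise, with a chi-square per degree of freedom of 2.29 to 4.46.

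Before the values, the promoters of 6 members are printed to show the start sites of genes the results turn on. ZNF264, ZNF805 and ZNF460 are neighbours, and ZNF622, ZNF267 and ZNF791 are members at least 2-fold higher with CCF642. So are ZNF805 and ZNF460, while ZNF264 rose 1.58-fold. The 6 were picked by hand, and ZNF432 and ZNF215, which changed more than some of them, are not printed. RefSeq promoter windows, from 250 bases before to 50 bases after the gene start, were found by symbol for 188 of the 221 members, and ZNF165, ZNF250, ZNF395 and ZNF704 were not among them. The stretches shown are the 150 bases before the start on build GRCh38.p14, written along the strand of the gene. Capitals mark GGGCGG (a GC box) or CCGGAAG (the core bound by ETS factors) on either strand. In ZNF267 the 2 motifs touch, so their capitals run together.
ZNF622, chr5:16465801-16465950, minus strand: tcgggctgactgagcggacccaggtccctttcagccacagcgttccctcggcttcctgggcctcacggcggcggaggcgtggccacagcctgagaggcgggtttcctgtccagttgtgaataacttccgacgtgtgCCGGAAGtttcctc
ZNF264, chr19:57191350-57191499, plus strand: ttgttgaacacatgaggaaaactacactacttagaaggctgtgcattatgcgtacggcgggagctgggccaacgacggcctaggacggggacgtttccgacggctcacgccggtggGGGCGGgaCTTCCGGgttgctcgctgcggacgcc
ZNF805, chr19:57240482-57240631, plus strand: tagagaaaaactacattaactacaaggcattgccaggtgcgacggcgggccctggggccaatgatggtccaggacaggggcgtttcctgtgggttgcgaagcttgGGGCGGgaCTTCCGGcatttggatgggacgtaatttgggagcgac
ZNF460, chr19:57279832-57279981, plus strand: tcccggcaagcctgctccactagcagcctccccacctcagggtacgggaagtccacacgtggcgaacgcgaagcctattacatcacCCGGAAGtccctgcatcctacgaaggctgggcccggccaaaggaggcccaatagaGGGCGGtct
ZNF267, chr16:31873657-31873806, plus strand: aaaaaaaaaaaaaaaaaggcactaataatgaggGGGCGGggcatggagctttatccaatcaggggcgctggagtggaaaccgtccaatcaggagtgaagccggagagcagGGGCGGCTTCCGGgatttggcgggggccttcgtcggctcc
ZNF791, chr19:12610770-12610919, plus strand: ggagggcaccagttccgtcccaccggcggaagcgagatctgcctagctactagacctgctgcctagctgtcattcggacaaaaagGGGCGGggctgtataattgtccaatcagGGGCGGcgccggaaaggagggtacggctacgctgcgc

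Per kilobase of the longest annotated transcript, the members with the highest mean DMSO level were ZNF217 at 39.7, ZNF330 at 37.6 and ZNF593 at 35.4 CPM per kb. ZNF217 is a transcriptional cofactor and oncoprotein, and ZNF593 acts in ribosome assembly. ZNF207, a spindle factor that binds BUB3, took the most reads of any member, with 279.6 and 280.0 CPM in the DMSO libraries and 20.3 CPM per kb. The median member had 24.0 CPM in DMSO. At the floor the members just inside were ZNF420, ZNF786 and ZNF419, with DMSO values of 9.09 to 11.5 CPM, and those just outside were ZNF436, ZNF737 and ZNF784, with 9.44 to 10.2 CPM.

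A KRAB A box was found in the translated coding sequences of 118 members and not in 100, and 3 pseudogene symbols had no class. KRAB members carried more fingers, with a median of 11.5 against 6. Their longest transcripts were of similar length, with medians of 4324 and 4444 bases, and lower in GC content, with medians of 43.0% and 48.9%. A SCAN box was found in 17 members. Finger counts ran from 0, in 4 members, to 31.

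Summed over the members, ZNF transcripts took 8477 and 8373 CPM in the DMSO libraries, 9014 and 9134 CPM under CCF642, and 8393 and 8471 CPM under CCF642-34. Both CCF642 libraries were above the other 4, and the DMSO and CCF642-34 libraries overlapped. The excess lay mostly in the KRAB members, whose sum was 3177 ± 49.7 CPM in DMSO, 3688 ± 18.5 CPM under CCF642 and 3298 ± 35.1 CPM under CCF642-34 (SD, n = 2). The sum of the members without KRAB was 5169 ± 24.6, 5302 ± 68.5 and 5058 ± 17.1 CPM in the same order. In bulk RNA, fewer cells of a kind and less RNA per cell cannot be told apart.

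The design allows a direct comparison of the compounds at matched dose and time, which does not rest on the DMSO libraries that chose the members. The ZNF members were on the whole lower with CCF642-34 than with CCF642. Each gene was tested with limma on log2(TMM-scaled CPM + 1), with p-values adjusted by Benjamini-Hochberg over all 11048 genes and called at an adjusted p under 0.05. Of the 221 members 59 were lower (26.7%) and 8 were higher (3.62%). Over all listed genes 17.4% were lower and 15.9% higher, and over the listed genes at or above the floor 20.4% were lower and 19.3% higher. The median log2 difference of the members was -0.10, against 0.01 over all listed genes. Library values of the compounds did not overlap in 106 members that were lower and 35 that were higher. Among all 11048 listed genes they did not overlap in 3420 that were lower and 3580 that were higher. Among the 8521 listed genes at or above the floor these numbers were 2773 and 2985. Scaled to library size alone, 44 members were lower (19.9%) and 15 higher (6.79%), against 13.5% and 21.8% of all genes. After a trend on GC content and length was removed, 48 were lower (21.7%) and 14 higher (6.33%), against 15.1% and 17.3% of all genes. The higher members numbered 4 when CCF642-34 replicate 1 was left out and 2 when replicate 2 was.

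**Figure D1:**
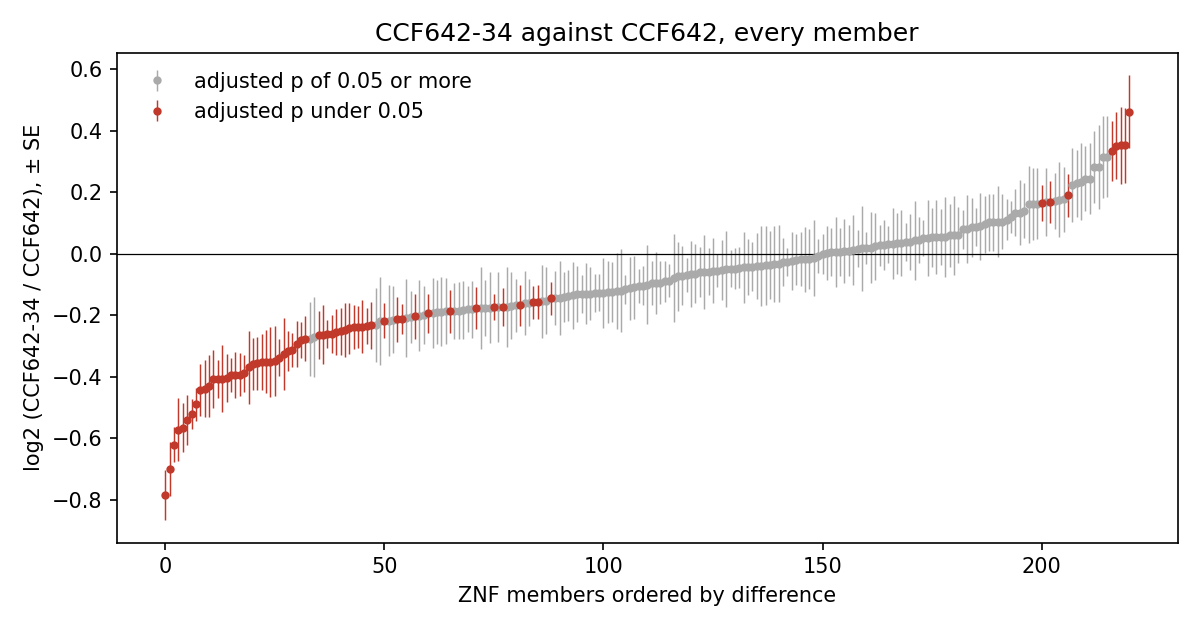
Each point is 1 of the 221 members, ordered along the horizontal axis by its log2 ratio of CCF642-34 to CCF642 on the vertical axis, with bars of 1 SE. Red points passed an adjusted p of 0.05: the 59 on the negative side reach -0.78, and the 8 on the positive side reach 0.46.

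ZNF460, a KRAB gene with 11 fingers, had the largest decrease between the compounds. Its level was 58.2 and 67.5 CPM under CCF642, 36.9 and 37.3 CPM under CCF642-34, and 22.1 and 26.0 CPM in DMSO. The 3 groups did not overlap, and CCF642-34 lay between DMSO and CCF642. The log2 difference between the compounds was -0.78 ± 0.08 (SE, adjusted p = 1.03e-10 by limma), with 13% of its 50-base stretches also found on the opposite strand of other transcripts, so the value is uncertain where reads are counted without strand.

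ZNF165, a SCAN gene known as a cancer-testis antigen, followed the same order. It was at 10.9 and 12.4 CPM in DMSO, 57.5 and 52.1 CPM under CCF642 and 35.0 and 33.8 CPM under CCF642-34. No libraries of different groups overlapped, and the difference between the compounds was -0.70 ± 0.09 on the log2 scale (adjusted p = 1.15e-08 by limma). ZNF267 was at 153.7 and 161.9 CPM under CCF642 and 100.1 and 111.2 CPM under CCF642-34, a difference of -0.62 ± 0.06 (adjusted p = 1.26e-12). ZNF264 was at 24.2 and 22.1 CPM under CCF642 but at 15.1 and 16.4 CPM under CCF642-34. With DMSO it was at 15.4 and 16.0 CPM, a range that the CCF642-34 libraries enclosed in CPM as deposited.

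The other members of the 8 largest decreases were ZNF841, ZNF805, ZNF215 and ZNF292, with log2 differences from -0.56 to -0.49. ZNF292, a long multi-finger protein without KRAB, was at 155.4 and 169.7 CPM under CCF642 against 113.3 and 124.9 CPM under CCF642-34. Its DMSO libraries, at 124.8 and 122.3 CPM, lay within the range of CCF642-34.

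The members that were higher with CCF642-34 than with CCF642 were ZNF558, ZNF689, ZNF362, ZNF500, ZNF623, ZNF395, ZNF512 and ZNF22, with log2 differences of 0.16 to 0.46. ZNF558, a KRAB gene, led them, at 9.48 and 10.0 CPM under CCF642, 14.1 and 14.3 CPM under CCF642-34 and 14.4 and 12.5 CPM in DMSO. Its 2 CCF642 libraries were below the other 4, and the difference was 0.46 ± 0.12 (adjusted p = 0.0019 by limma). ZNF395, ZNF512, ZNF500 and ZNF22 share at least 20% of their 50-base stretches with other transcripts on the same or the opposite strand, and their values are uncertain for that reason.

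For several strongly changed members no difference between the compounds was called. ZNF622, which acts in the maturation of the large ribosomal subunit, was at 87.9 and 96.0 CPM under CCF642 and at 92.1 and 84.2 CPM under CCF642-34. The libraries overlapped, and the 95% interval of the log2 difference ran from -0.23 to 0.02. ZNF329 had an interval from -0.18 to 0.25, ZNF318 from -0.13 to 0.23, and ZNF704 from -0.05 to 0.39.

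Against DMSO, CCF642 was followed by more increases than decreases among the members. With CCF642, 99 members were higher (44.8%) and 45 lower (20.4%). Over all listed genes 31.8% were higher and 31.3% lower, and over the listed genes at or above the floor 34.9% were higher and 34.7% lower. The median log2 change of the members was 0.15, against -0.01 over all listed genes. The same DMSO libraries set the floor and enter this comparison, so the counts are given as a description. With members chosen instead by a mean of at least 10 CPM over the 4 compound libraries, 216 genes qualified, of which 202 were shared, and 113 were higher and 32 lower. That choice favours genes that are high under the compounds, so its tilt towards higher genes is built in and it is no check on the floor. Scaled to library size alone, 30.3% of the members were higher and 29.4% lower (67 and 65), against 22.9% and 42.9% of all genes, with a median of 0.02 against -0.13. Without DMSO replicate 1 the lower members numbered 27.

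CCF642-34 was followed by a split closer to that of other genes. With this compound 72 members were higher (32.6%) and 49 lower (22.2%). Over all listed genes 29.7% were higher and 27.9% lower, and over those at or above the floor 33.4% were higher and 31.1% lower. The median of the members was 0.03 on the log2 scale, against 0.01 over all listed genes, and under scaling to library size alone 24.9% of the members were higher and 31.7% lower (55 and 70), against 22.6% and 35.95% of all genes. The comparisons with DMSO share their control libraries, so the values of each are set side by side only.

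**Figure D2:**
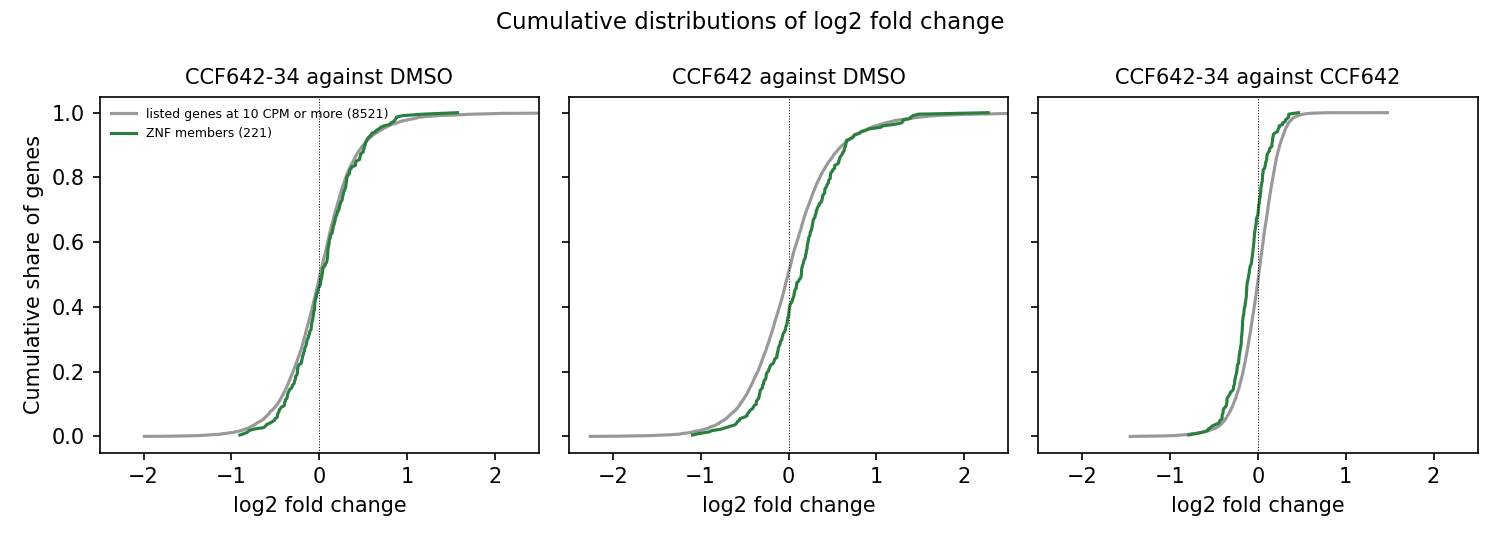
Cumulative share of genes on the vertical axis against log2 fold change on the horizontal axis, for the 221 members (green) and the 8521 listed genes with a mean of at least 10 CPM in DMSO (grey), in each comparison. The green curve lies right of the grey one for CCF642 against DMSO (medians 0.15 and -0.01), left of it for CCF642-34 against CCF642 (medians -0.10 and 0.01), and close to it for CCF642-34 against DMSO (medians 0.03 and 0.01).

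The criterion of at least 2-fold with an unadjusted p under 0.05 was also applied to the 221 members. With CCF642 11 were higher and 2 were lower, ZNF395 and ZNF704. Of all 11048 listed genes 497 were higher (4.5%) and 220 lower (1.99%) at this criterion. A KRAB A box was found in 118 of the 218 members with a class. Of the 11, 9 carry it: ZNF460, ZNF805, ZNF432, ZNF215, ZNF267, ZNF250, ZNF791, ZNF841 and ZNF184. The others were ZNF165 and ZNF622. With CCF642-34 the criterion was passed by ZNF165 and ZNF622, against 2.59% of all listed genes that were higher. The lower members numbered 1 without CCF642 replicate 2 or without DMSO replicate 2.

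ZNF165 rose 4.83-fold with CCF642 and 2.97-fold with CCF642-34, the largest change of a member with either compound. ZNF622 was at 39.4 and 42.1 CPM in DMSO and rose 2.44-fold with CCF642 and 2.27-fold with CCF642-34. Folds are on the scale of log2(CPM + 1), which understates changes at low levels.

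ZNF805, which precedes ZNF460 among the neighbouring members, was at 19.8 and 20.1 CPM in DMSO, 52.2 and 48.0 CPM under CCF642 and 35.0 and 35.3 CPM under CCF642-34. The libraries of the groups were apart, and the folds over DMSO were 2.67 and 1.84. ZNF432 was at 17.7 and 16.2 CPM in DMSO, 39.5 and 44.7 CPM under CCF642 and 28.2 and 35.7 CPM under CCF642-34. ZNF215, with both a KRAB and a SCAN box, was at 98.5 and 98.2 CPM in DMSO, 229.8 and 240.4 CPM under CCF642 and 169.9 and 167.4 CPM under CCF642-34. In these genes too the CCF642-34 libraries lay between the other groups.

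ZNF791 was at 54.3 and 54.1 CPM in DMSO, 107.3 and 123.0 CPM under CCF642 and 89.1 and 91.5 CPM under CCF642-34. ZNF250 was at 12.1 and 10.9 CPM in DMSO, 27.2 CPM in both CCF642 libraries and 21.1 and 20.1 CPM under CCF642-34. ZNF841 was at 29.8 and 25.5 CPM in DMSO, 53.3 and 54.4 CPM under CCF642 and 35.9 and 38.5 CPM under CCF642-34. For ZNF184, at 24.6 and 22.4 CPM in DMSO, the compounds gave 41.5 and 49.4 CPM (CCF642) and 38.1 and 40.5 CPM (CCF642-34). Each of these 4 genes was lower with CCF642-34 than with CCF642, with log2 differences of -0.56 to -0.24 and adjusted p of at most 0.0209 by limma.

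**Figure D3:**
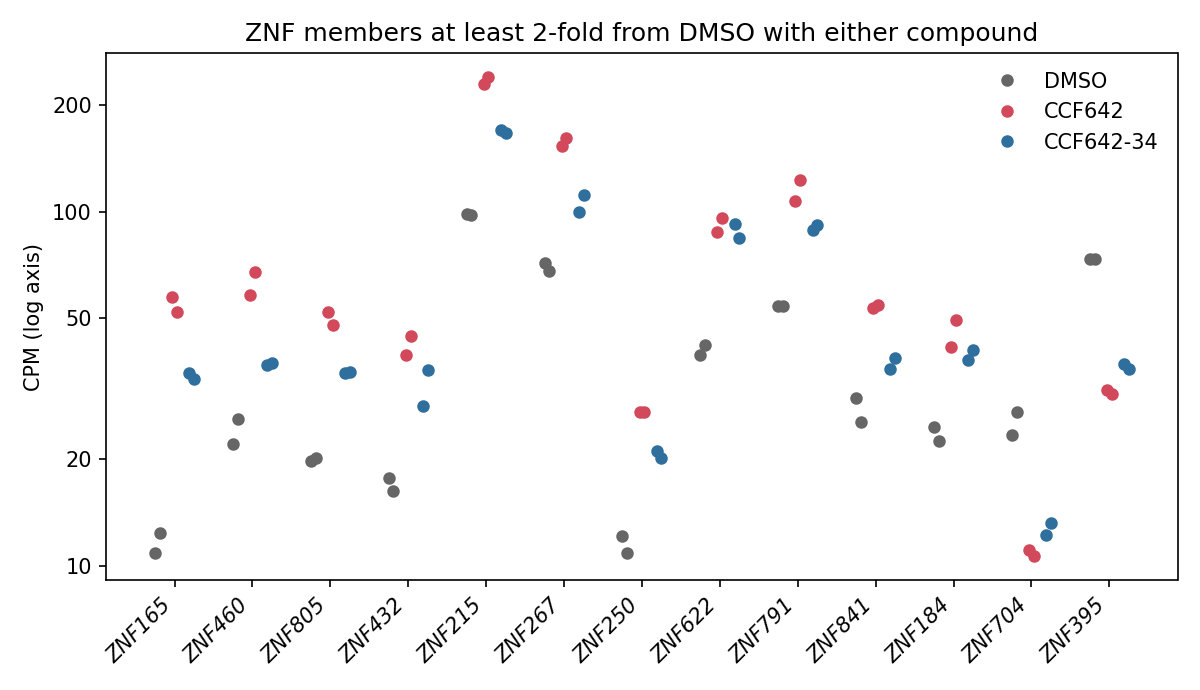
CPM in each library on a log axis for the 13 members at least 2-fold from DMSO with either compound (grey DMSO, red CCF642, blue CCF642-34, 2 points per group). For the increased members CCF642-34 lies between DMSO and CCF642, except ZNF622, whose compound libraries overlap between 84.2 and 96.0 CPM.

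The decreases were smaller. ZNF395, a gene induced by hypoxia, was at 73.6 and 73.7 CPM in DMSO, 31.3 and 30.6 CPM under CCF642 and 37.0 and 36.0 CPM under CCF642-34, and 42% of its 50-base stretches occur in other transcripts. ZNF704 was at 23.4 and 27.2 CPM in DMSO, 11.1 and 10.6 CPM under CCF642 and 12.2 and 13.2 CPM under CCF642-34. ZNF827, which recruits NuRD to telomeres, was at 20.7 and 20.2 CPM in DMSO, 9.48 and 9.47 CPM under CCF642 and 10.2 and 11.9 CPM under CCF642-34. All 3 genes fell with both compounds, with no overlap of the DMSO libraries with the others.

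ZNF318, a nuclear protein with few fingers, fell by 0.87 with CCF642 and by 0.81 with CCF642-34 on the log2 scale, from 45.9 and 41.2 CPM in DMSO. ZNF346, a protein that binds double-stranded RNA, fell by 0.76 and 0.80, from 22.1 and 22.9 CPM. ZNF507, ZNF500 and ZNF74 completed the 8 largest decreases with CCF642, with log2 changes of -0.71 to -0.61. With CCF642-34 the list was completed by ZNF124, ZNF587B and ZNF367, with -0.64 to -0.60. ZNF367 was at 61.2 and 60.9 CPM in DMSO, 45.5 and 50.5 CPM under CCF642 and 38.1 and 36.8 CPM under CCF642-34. It was lower with CCF642-34 than with CCF642 as well, by a log2 difference of -0.39 ± 0.07 (adjusted p = 1.86e-05 by limma).

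By protein class, 34 of 118 KRAB members were lower with CCF642-34 than with CCF642 and 2 were higher, with a median log2 difference of -0.14. Among the 100 members without KRAB 24 were lower and 6 higher, with a median of -0.05. Under CCF642 against DMSO, 56 KRAB members were higher and 22 lower (median 0.18). Of those without KRAB, 41 were higher and 23 lower (median 0.09). With CCF642-34 the counts were 40 and 26 for KRAB (median 0.05) and 31 and 23 without it (median 0.02). As shares, 28.8% of KRAB members were lower and 1.69% higher between the compounds, against 24% and 6% without KRAB. Higher and lower with CCF642 were 47.5% and 18.6% with KRAB, and 41% and 23% without. With CCF642-34 they were 33.9% and 22.03%, and 31% and 23%. The listed genes at or above the floor had 20.4% lower and 19.3% higher between the compounds. They had 34.9% higher and 34.7% lower with CCF642, and 33.4% and 31.1% with CCF642-34. The classes also differed in GC content, and after a smooth trend on GC content and length was removed the direct medians were -0.11 with KRAB and -0.02 without. Scaled to library size alone they were -0.10 and -0.01. Without DMSO replicate 1 the KRAB members lower with CCF642 numbered 9, and without CCF642-34 replicate 1 those lower with CCF642-34 than with DMSO numbered 17. The KRAB members higher in the direct comparison numbered 1 without CCF642 replicate 1, and those without KRAB numbered 2 and 0 without CCF642-34 replicates 1 and 2. The difference between the classes was not tested.

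**Figure D4:**
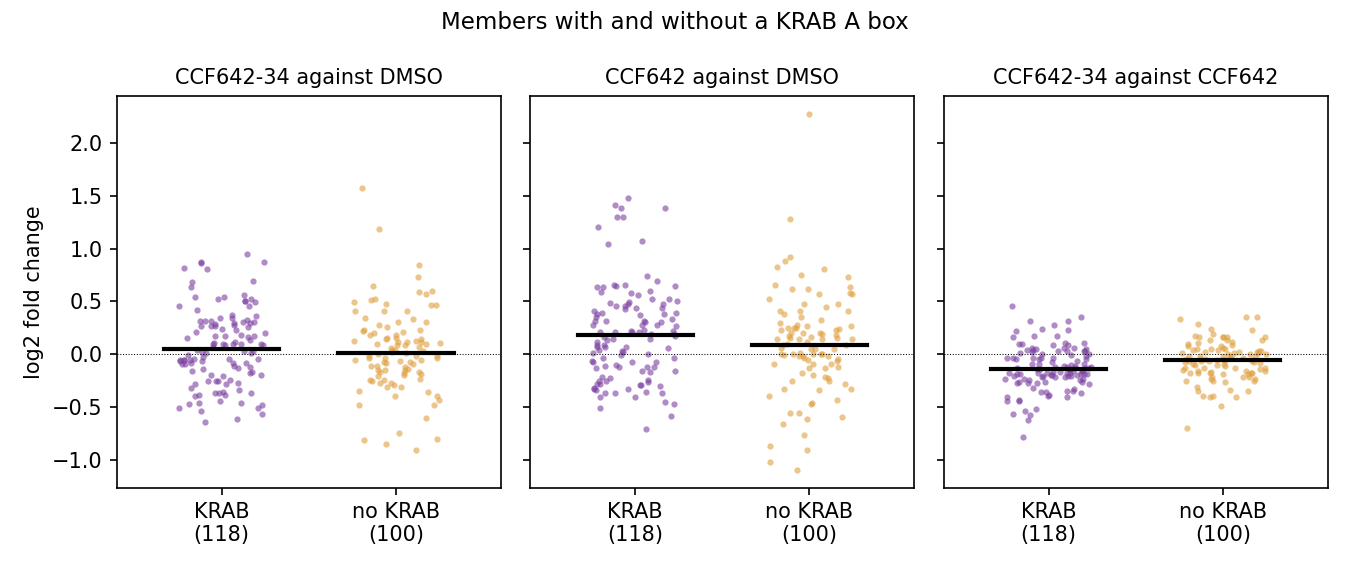
log2 fold change (vertical axis) of the 118 members with a KRAB A box (purple) and the 100 without (orange) in each comparison, with 1 point per gene and a bar at the median. For CCF642-34 against CCF642 the bar is at -0.14 with KRAB and -0.05 without.

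KRAB members were also counted by finger number. Of 76 KRAB members with 10 or more fingers 27 were lower and 1 was higher with CCF642-34 than with CCF642, with a median of -0.18. Of 42 with fewer fingers 7 were lower and 1 was higher, with a median of -0.07. These are 35.5% and 1.32% of the 76, and 16.7% and 2.38% of the 42. Among the listed genes at or above the floor 20.4% were lower and 19.3% higher. The median GC content was 42.2% in the 76 and 45.9% in the 42. Neither its part nor the difference between these groups of KRAB members was tested. Among members without KRAB the medians were -0.07 with 10 or more fingers and -0.04 with fewer. Across 218 members Spearman's rho between finger number and the direct log2 difference was -0.22, and for GC content it was 0.24 across 221, both over genes that share libraries.

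Close paralogs can share reads. At least 5% of 50-base stretches were shared with other genes on the same strand in 50 members and on the opposite strand in 33. Among the 144 members under 5% on both, the direct comparison called 45 lower (31.25%) and 4 higher (2.78%) under CCF642-34. Against DMSO, CCF642 gave 70 higher (48.6%) and 27 lower (18.75%). The listed genes at or above the floor had 20.4% lower and 19.3% higher in the direct comparison. With CCF642 they had 34.9% higher and 34.7% lower.

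Members with a known role outside KRAB repression were read from lists of roles. Of 7 measured members with roles in RNA, ribosomes and translation, CCF642 gave 4 higher and 1 lower, and CCF642-34 gave 3 and 1. As shares, 57.1% were higher with CCF642 and 42.9% with CCF642-34, beside 34.9% and 33.4% of the listed genes at or above the floor. ZNF598, the ubiquitin ligase that marks collided ribosomes, was at 141.4 and 137.4 CPM in DMSO, 192.6 and 188.6 CPM under CCF642 and 184.9 and 178.0 CPM under CCF642-34. Both compounds were above DMSO, by 0.58 ± 0.05 and 0.47 ± 0.05 on the log2 scale (adjusted p = 3.37e-15 and 5.16e-12 by limma). ZNF593, a factor of large ribosomal subunit export, was at 22.5 and 27.0 CPM in DMSO, 27.3 and 33.2 CPM under CCF642 and 34.3 and 32.5 CPM under CCF642-34, and 93% of its stretches occur on the opposite strand of other transcripts.

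ZNF638, an RNA-binding protein that works with the HUSH silencing complex, was at 97.7 and 92.5 CPM in DMSO, 100.1 and 106.8 CPM under CCF642 and 92.7 and 98.6 CPM under CCF642-34. The rise with CCF642 was 0.25 ± 0.06 (adjusted p = 0.000111 by limma). ZNF326, a subunit of a complex that couples elongation to splicing, and ZNF830, a spliceosome factor, had log2 changes of 0.09 and 0.18 with CCF642, which did not pass.

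Among 17 chromatin cofactors and promoter factors, 11 were higher with CCF642, and 9 were lower with CCF642-34 than with CCF642. With CCF642-34 against DMSO 7 were higher and 2 lower. These are 64.7% higher with CCF642, 52.9% lower in the direct comparison and 41.2% higher with CCF642-34, against 34.9%, 20.4% and 33.4% of the listed genes at or above the floor, and the list was put together by hand. ZNF687, a partner of ZNF592 in a complex that binds chromatin readers, was at 77.5 and 73.0 CPM in DMSO, 107.3 and 97.5 CPM under CCF642 and 87.8 and 79.0 CPM under CCF642-34. The groups did not overlap, and the compounds differed by -0.34 ± 0.06 (adjusted p = 1.64e-05 by limma). ZNF644 and ZNF518A, which bind the histone methyltransferases EHMT1 and EHMT2, differed between the compounds by -0.31 and -0.41 (adjusted p = 1.32e-05 and 1.23e-06).

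ZNF410, whose described direct target is CHD4, rose by 0.63 and 0.57 with CCF642 and CCF642-34, but 86% of its stretches occur in other transcripts. ZNF335, a subunit of histone methyltransferase complexes, was at 67.1 and 67.6 CPM in DMSO, 81.8 and 89.5 CPM under CCF642 and 83.7 and 77.8 CPM under CCF642-34. ZNF516 rose by 0.66 with CCF642 and by 0.41 with CCF642-34, and ZNF384 by 0.38 and 0.23, with 49% of the stretches of ZNF384 on the opposite strand of other transcripts. ZNF592, ZNF609, ZNF24 and ZNF263 rose with CCF642 by 0.17 to 0.23. ZNF143, which binds many promoters, had a log2 change of -0.07 with CCF642-34 and did not pass in any comparison. ZNF148, ZNF76 and ZNF518B did not pass against DMSO with either compound. ZNF281 and ZNF217 fell with CCF642-34, by 0.34 and 0.27, while with CCF642 their changes were -0.13 and -0.01.

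Of the members described as repressors of transposable elements, 4 were at or above the floor. ZNF91, which acts on SVA elements, was at 15.01 and 13.7 CPM in DMSO, 8.90 and 11.02 CPM under CCF642 and 8.40 and 10.7 CPM under CCF642-34. It fell by 0.37 ± 0.13 and 0.47 ± 0.13 (adjusted p = 0.0119 and 0.00177 by limma). ZNF93, which acts on LINE-1 elements, was at 11.9 and 11.8 CPM in DMSO, 14.5 and 16.3 CPM under CCF642 and 13.2 and 14.4 CPM under CCF642-34, and rose by 0.48 and 0.29. ZNF417 and ZNF587, close paralogs that act on endogenous retroviruses, rose by 0.38 and 0.26 with CCF642. At least 20% of the stretches of each are shared, so their values cannot be fully separated.

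ZNF451, a SUMO ligase, was at 82.5 and 80.7 CPM in DMSO, 119.8 and 128.4 CPM under CCF642 and 94.6 and 99.6 CPM under CCF642-34. All groups were apart, and the compounds differed by -0.39 ± 0.05 (adjusted p = 1.38e-07 by limma). ZNF746 (PARIS), a substrate of parkin, had log2 changes of 0.14 and 0.17, of which the latter, with CCF642-34, passed (adjusted p = 0.0248). ZNF207 fell by 0.17 with CCF642-34 and had a log2 change of 0.00 with CCF642, which was -0.13 under scaling to library size alone. ZNF770, with 31% of its stretches on the opposite strand of other transcripts, rose by 0.41 and 0.20 with CCF642 and CCF642-34, and ZNF329 by 0.81 and 0.84.

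The proteins that KRAB members work through were counted as 22 listed partner genes. With CCF642-34 15 of them were lower than with DMSO and 0 higher, and with CCF642 13 were lower and 4 higher. Between the compounds 8 were lower with CCF642-34 and 3 higher. With CCF642-34 68.2% of the partners were lower and 0% higher. These shares were 59.1% and 18.2% with CCF642, and 36.4% and 13.6% between the compounds. Over all listed genes they were, in the same order, 27.9% and 29.7%, 31.3% and 31.8%, and 17.4% and 15.9%. Every partner but CHD3 lay at or above the floor. Over the listed genes there the shares were 31.1% and 33.4%, 34.7% and 34.9%, and 20.4% and 19.3%. TRIM28, the corepressor itself, was at 429.1 and 443.0 CPM in DMSO, 387.7 and 398.6 CPM under CCF642 and 375.8 and 339.0 CPM under CCF642-34. Its fall of 0.20 with CCF642-34 passed (adjusted p = 0.0001 by limma), and its change of -0.02 with CCF642 did not. CBX5, an HP1 protein, fell from 314.8 and 321.9 CPM to 162.3 and 161.8 CPM under CCF642 and 180.4 and 179.3 CPM under CCF642-34. UHRF1, which recruits DNA methylation at replication, fell by 1.43 with each compound on the log2 scale. SETDB1, the histone methyltransferase, was higher with CCF642 by 0.19 (adjusted p = 0.00196) and had a change of 0.10 with CCF642-34 that did not pass. The partners higher with CCF642 numbered 2 without DMSO replicate 1 and 0 under scaling to library size alone. In the direct comparison those lower numbered 5 without CCF642 replicate 2 and likewise 5 without CCF642-34 replicate 2. Leaving out CCF642-34 replicate 1 gave 4 lower and 1 higher.

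Other C2H2 families at or above the floor were counted for comparison. Of 28 ZBTB genes, 13 were higher and 5 lower under CCF642 than in DMSO. Between the compounds 10 were lower under CCF642-34 (35.7%) and 2 higher (7.14%). At or above the floor 20.4% of the listed genes were lower and 19.3% higher. Of 8 ZSCAN and ZKSCAN genes 3 were higher (37.5%) with either compound than with DMSO. Of 4 ZFP genes 1 was higher and 2 were lower with CCF642. Of the 170 ZNF symbols under the floor, CCF642 left 47 higher and 25 lower than DMSO. Between the compounds 8 of them were lower under CCF642-34 and 2 higher. Of the listed genes at or above the floor 34.9% were higher and 34.7% lower with CCF642, against 46.4% and 17.9% of the ZBTB genes. The symbols under the floor had 27.6% higher and 14.7% lower, against 31.8% and 31.3% of all listed genes. Between the compounds they had 4.71% lower and 1.18% higher, against 17.4% and 15.9%. Of the 11048 listed genes 8521 were at or above the floor, where calls were more frequent, so the sets are not alike. Shares of the listed genes under the floor were not computed, so these symbols cannot be placed above or below background. The differences between families were not tested.

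ZNF genes lie in clusters, and the runs of neighbouring members described here were chosen after their values had been seen, as were the genes named only in them. Members were joined where at most 2 other protein-coding genes lay between them in RefSeq order on GRCh38.p14, which placed 114 of the 218 matched members in 35 runs. The longest run held ZNF264, ZNF805, ZNF460, ZNF543, ZNF304, ZNF548, ZNF17, ZNF749, ZNF419 and ZNF550, all with a KRAB A box. In this run 7 of 10 genes were higher with CCF642 and 5 with CCF642-34, and 4 were lower with CCF642-34 than with CCF642. Of the listed genes at or above the floor 34.9% and 33.4% were higher with CCF642 and CCF642-34, and 20.4% were lower in the direct comparison. The first 6 genes of the run were all called with CCF642, with log2 changes between 0.30 and 1.48. ZNF17, ZNF749 and ZNF419, which follow, had changes of -0.10 to 0.07 and did not pass, and ZNF550 rose by 0.41. In the next longest run, of 8 genes from ZNF786 to ZNF862, 2 were higher and 2 lower with CCF642, with a median of -0.06. Beside this, 34.9% of the listed genes at or above the floor were higher with CCF642 and 34.7% lower. Whether place in a run had a part was not tested.

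A run of 6 genes went otherwise than the longest run. ZNF430, ZNF714, ZNF431, ZNF708, ZNF738 and ZNF100 had a median log2 change of -0.27 with CCF642-34, with 3 called lower. With CCF642 their median was 0.00, with 1 called higher. Of the listed genes at or above the floor 31.1% were lower with CCF642-34 and 34.9% higher with CCF642. In ZNF431 the libraries were at 14.8 and 16.7 CPM in DMSO, 16.9 and 18.2 CPM under CCF642 and 13.8 and 13.1 CPM under CCF642-34.

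**Figure D5:**
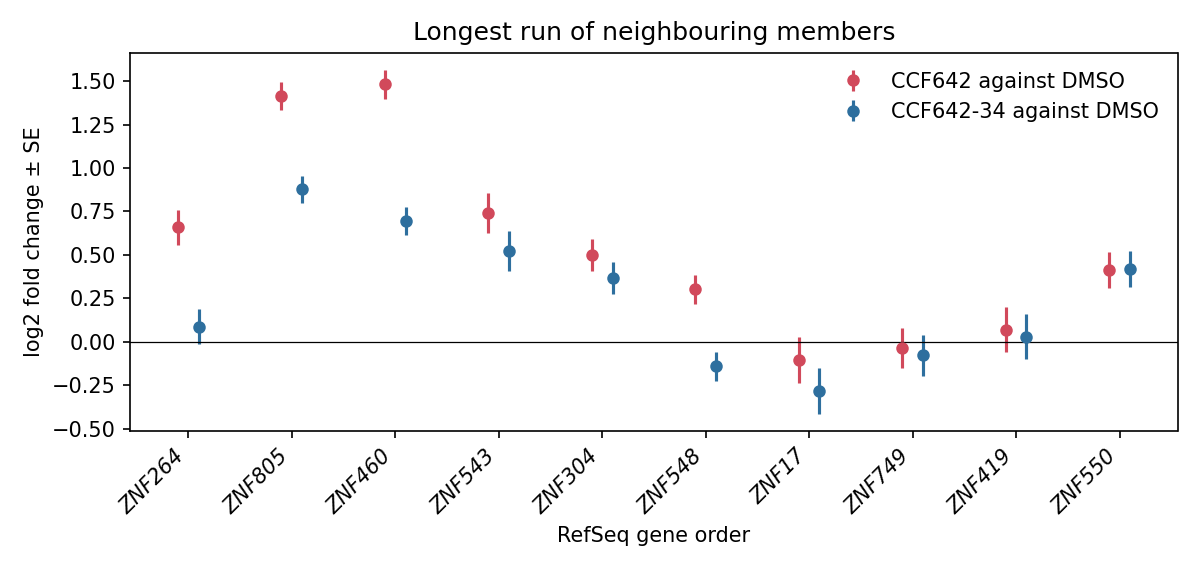
log2 fold change against DMSO (vertical axis, bars of 1 SE) for the 10 genes of the longest run of neighbouring members in RefSeq order, with CCF642 in red and CCF642-34 in blue. The changes with CCF642 are largest at ZNF805 (1.42) and ZNF460 (1.48), and ZNF17, ZNF749 and ZNF419 lie near 0.

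Promoter letters were counted over the whole 300-base windows, on both strands. The ETS core CCGGAAG was held by 44.1% of the 188 member promoters, by 20.2% of the promoters of listed genes and by 10.7% of all promoters in the table. KRAB members held it in 50.5% and members without KRAB in 36.8%. GGGCGG was held by 69.1% of member promoters and 70.3% of those of listed genes. The CRE sequence TGACGTCA, bound by CREB and ATF factors, was held by 5.32% of member promoters, by 300 of the 8871 promoters of listed genes and by 1.98% of all. TTGCATCA, a site of C/EBP and ATF dimers, was found in 0 of the 188 member promoters and in 0.451% of those of listed genes, and CTACAATTC, a site of ZNF143, in 2.13% and 0.654%.

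Of the 11 members at least 2-fold higher with CCF642, 9 had a promoter in the table, and 8 of these held CCGGAAG. ZNF791 was the exception, as its sequence above shows. In ZNF264 and ZNF805 the GC box and the reversed ETS core stand 2 bases apart, at 34 and 26 bases (ZNF264) and at 45 and 37 bases (ZNF805) before the start. Among 83 members with CCGGAAG 43 were higher and 12 lower with CCF642 (median 0.19), and 33 and 12 with CCF642-34 (median 0.10). Among 105 members without it 42 were higher and 24 lower with CCF642 (median 0.09), and 28 and 28 with CCF642-34 (median -0.05). In the direct comparison 23 of 83 and 30 of 105 were lower, with medians of -0.11 in both sets. As shares, CCF642 gave 51.8% higher and 14.5% lower with the core, and 40% and 22.9% without it. CCF642-34 gave 39.8% and 14.5% with it, and 26.7% and 26.7% without it. In the direct comparison 27.7% and 28.6% were lower. The listed genes at or above the floor had 34.9% higher and 34.7% lower with CCF642. They had 33.4% and 31.1% with CCF642-34, and 20.4% lower in the direct comparison.

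Of the 10 members with TGACGTCA 8 were higher with CCF642: ZNF543, ZNF561, ZNF562, ZNF335, ZNF593, ZNF330, ZNF121 and ZNF266. These were named after their values had been seen. Among the 178 members whose promoters lack the sequence 77 were higher with CCF642 (43.3%). Of the listed genes at or above the floor 34.9% were. ZNF266 and ZNF121 had log2 changes of -0.07 and -0.18 with CCF642-34 and were not among the 6 of the 10 that were higher with that compound. Without the sequence 55 of 178 were higher with CCF642-34 (30.9%), beside 33.4% of the listed genes at or above the floor. Whether the sequence had a part was not tested. ZNF143 and ZNF200, which also hold the sequence, did not pass with either compound. A match describes the letters of a window and shows no binding.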

How the data were processed

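Polyadenylated RNA of MM1.S cells was sequenced in 6 libraries, 2 per group, grouped by the labels. The authors deposited CPM values per gene, and per the submitters' processing notes STAR, edgeR 3.24.3, limma 3.38.3 and build hg19 were used. Whether counting used strand is not given in the sources used here. All CPM values corresponded to whole reads within 0.01 read. The table of the whole series held the same values and was not used.

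The values were TMM-scaled (edgeR 4.0.16), taken as log2(CPM + 1) and fitted with limma 3.58.1 in R 4.3.3 over all 6 libraries and 11048 genes, without a block. P-values were adjusted by Benjamini-Hochberg and called under 0.05. At least 2-fold with an unadjusted p under 0.05 was a separate criterion. The code was tested on simulated data. Alternatives were other scalings, pseudocounts and floors, count tests on the recovered reads (edgeR and DESeq2 1.42.0), the removal of a trend on GC and transcript length, and each library left out.

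Fingers, KRAB and SCAN boxes were read from translated coding sequences. The limit for KRAB, 13 of 41 identical residues, was set after seeing a gap in the scores. The gap was narrow: the highest score below the limit was 11, and 7 members lay within 2 of the limit. The class of those 7 is uncertain. Shared reads were judged from 50-base stretches of the transcripts. The members, gene lists and roles were chosen with earlier results of these data known. Named members are the 8 largest called changes each way in each comparison, those past 2-fold, the 3 nearest the floor on either side, the 3 with the highest CPM and the members with listed roles. Intervals cover the spread between libraries only, after it was drawn towards the trend over all genes.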

Additional observations from a re-analysis of the deposited data

How the results depend on the processing

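The median log2 changes of the members, 0.03 with CCF642-34 against DMSO, 0.15 with CCF642 against DMSO and -0.10 in the direct comparison, are given here in that order. Scaled to library size alone they were -0.053, 0.017 and -0.060, while the medians of all genes were -0.078, -0.13 and 0.051, against 0.007, -0.01 and 0.01 before, so the sign change of the first went with a shift of all genes. That scaling left 15 members higher in the direct comparison (7 with KRAB), 34 KRAB members lower and 25 members without KRAB higher with CCF642, 0 partners higher with CCF642 and 5 lower in the direct comparison. With the GC content and length correction the last 2 medians were 0.10 and -0.053, 14 members were higher in the direct comparison (4 with KRAB, 10 without), 1 partner was higher with CCF642-34 and 4 were lower in the direct comparison. DESeq2's size factors moved the first and last medians to 0.026 and -0.11, and DESeq2's Wald test left 3 members higher in the direct comparison (1 with KRAB, 2 without). A pseudocount of 4 gave 0.13 and -0.089 for the last 2 medians and 1 member at least 2-fold lower with CCF642. ZNF207 with CCF642 went from 0.00 to -0.084 with the GC content and length correction and to -0.13 under library size alone. Beyond what each setting's construction shows, the cause was not tested.

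Members chosen over the 4 compound libraries, which favours genes high there, had medians of 0.10, 0.21 and -0.11. A DMSO floor of 5 CPM gave 0.11 and -0.093 for the last 2. A floor of 20 CPM kept fewer genes and gave 0.017, 0.16 and -0.13, with 45 higher and 1 at least 2-fold higher with CCF642-34, 65 higher, 25 lower and 7 at least 2-fold higher with CCF642, and 5 higher in the direct comparison.

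Deviations of same-numbered libraries from their group means correlated at -0.05, -0.11 and 0.14. Without known pairs to set beside them, these values cannot tell whether same-numbered libraries shared a culture. With a replicate block the counts higher and lower were 72 and 49 with CCF642-34, 99 and 45 with CCF642, and 10 and 59 in the direct comparison. The block with the GC content and length correction gave medians of 0.10 and -0.053 for the last 2 comparisons, -0.084 for ZNF207, 15 members higher in the direct comparison (4 with KRAB, 11 without), 1 partner higher with CCF642-34 and 4 lower in the direct comparison.

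With each library left out in turn, the medians ranged from 0.025 to 0.032, from 0.129 to 0.147 and from -0.104 to -0.081. With CCF642-34 57 to 76 members were higher and 37 to 53 lower, and 2 to 3 were at least 2-fold higher. With CCF642 79 to 97 were higher and 27 to 44 lower, 10 to 12 at least 2-fold higher and 1 to 2 at least 2-fold lower. In the direct comparison 2 to 8 were higher and 43 to 57 lower. For KRAB members the ranges of higher and lower were 31 to 41 and 17 to 28 with CCF642-34, 46 to 56 and 9 to 22 with CCF642, and 1 to 2 and 23 to 32 in the direct comparison. Without KRAB they were 25 to 34 and 18 to 25, 32 to 40 and 18 to 22, and 0 to 6 and 17 to 24. For the partners they were 0 and 14 to 15, 2 to 5 and 12 to 14, and 1 to 3 and 4 to 8. For the 64 named members 3224 values under alternatives kept direction and call, 149 lost the call, 47 gained it, 81 moved and 3 changed sign, all of ZNF207.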
